A study of Mus musculus with 6 samples.

Results

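The genes described here are 6 that carry glucose and lactate across the plasma membrane or help such carriers reach it: Slc2a1 and Slc2a3, Slc16a1 and Slc16a3, and Bsg and Emb. They were taken by name from a table of 16832 genes, and all 6 were in it. They were chosen by function, with their measured difference between the genotypes already known, so these differences are given as a description. Whether the fit over all genes called one of the 6 is stated only beside the share of all genes called, and it is no test of them. RNA came from mouse embryos of embryonic day 9.5, from microdissected second heart field, the progenitor tissue that adds cells to the poles of the heart tube. The controls are labelled CTRL Mef2c-Cre, and the gain-of-function samples (GoF) carry a Hoxb1GOF allele with Mef2c-Cre, so the Cre driver is common to both groups. The labels list 3 samples per group, with values for 2 controls (replicates 2 and 3) and 3 GoF samples (replicates 1, 2 and 3), and control replicate 1 was not analysed here. They give no strain or sex and do not say how many embryos made a sample or whether replicates are separate embryos, so any p-value measures only the spread between these libraries.

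Cells import glucose through facilitative transporters of the SLC2A family. Slc2a1 encodes GLUT1, the widespread basal transporter, and Slc2a3 encodes GLUT3, a high-affinity transporter of neurons and early embryos. Cells that run glycolysis to lactate export it with a proton through monocarboxylate transporters. Slc16a1 encodes MCT1, which carries lactate in either direction, and Slc16a3 encodes MCT4, a low-affinity exporter of glycolytic cells. Both need a single-span glycoprotein partner to reach the membrane, mainly basigin, the product of Bsg, while embigin, the product of Emb, is a related partner. Slc2a1 and Slc16a3 are among the known targets of the hypoxia-inducible factors, which bind DNA at the core letters ACGTG or GCGTG.

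Reads recovered from the normalized counts of the 16832 genes numbered 34260116 to 44384354 per library, which is not the full sequencing depth. Mitochondrial genes took 35.7% to 37.4% of these reads in GoF against 44.4% and 50.7% in the controls. Hoxb1 itself, in normalized counts, stood at 751.6 and 610.2 against 1021.8 ± 19.1 in GoF (SD, n = 3), and it rose 1.51-fold (limma adjusted p = 0.0147). It did not pass when GoF replicate 1 was left out (adjusted p = 0.0601) or when the trend on transcript GC was taken off (adjusted p = 0.251). GoF replicate 1 lay between the other GoF libraries for 69.5% of 9082 genes whose mean reached 200, and its SD about their mean was 0.279 times the SD of their difference. Libraries that vary alike and independently would give 33.3% and 0.866. The labels do not say how the 3 GoF samples relate, each GoF SD (n = 3) includes replicate 1, and the differences of the 6 genes are also given without it. Of 10 second heart field markers with values, 2 rose, Osr1 and Tbx5, and 2 fell, Fgf10 and Foxc1 (12.2% and 10.9% of all genes). With the GC trend removed 1 rose, Osr1, and the same 2 fell (3.11% and 3.33%). Mef2c and Tbx5 were well above 0 in every library (lowest values 4978.4 and 1491.2). Of 9 heart muscle markers 2 rose and 3 fell (12.2% and 10.9% of all genes), with a median log2 difference of 0.05. With the GC trend removed 1 rose and 4 fell (3.11% and 3.33% of all genes), with a median of -0.34. The summed counts of the 9 were 288641 and 397394 in the controls and 188162 to 237965 in GoF. Most of this was Ttn, the titin gene, at 229067 and 328088 and then 121492 to 170199.

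The promoters of the 4 genes with an entry in the RefSeq table are printed first, because 2 belong to transporters that were higher in GoF and 2 to genes whose groups overlapped. Each runs from 250 bases before to 50 after the start site, 5′ to 3′ on the gene's strand (build GRCm38.p6), and capitals mark the letters ACGTG or GCGTG on either strand.
Slc2a1, chr4:119108495-119108794, plus strand: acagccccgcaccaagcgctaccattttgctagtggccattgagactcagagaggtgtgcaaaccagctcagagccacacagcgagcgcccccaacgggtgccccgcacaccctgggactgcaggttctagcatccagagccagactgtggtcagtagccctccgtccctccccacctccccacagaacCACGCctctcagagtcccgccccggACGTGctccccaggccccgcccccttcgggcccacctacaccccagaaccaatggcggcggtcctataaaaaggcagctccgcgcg
Slc16a3, chr11:120948817-120949116, plus strand: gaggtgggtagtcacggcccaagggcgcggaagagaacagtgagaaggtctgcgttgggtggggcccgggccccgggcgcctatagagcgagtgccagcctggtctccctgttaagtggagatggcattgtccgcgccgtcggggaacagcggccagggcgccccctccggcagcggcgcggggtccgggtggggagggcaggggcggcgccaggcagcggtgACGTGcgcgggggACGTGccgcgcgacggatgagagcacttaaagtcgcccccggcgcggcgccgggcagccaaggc
Slc16a1, chr3:104638414-104638713, plus strand: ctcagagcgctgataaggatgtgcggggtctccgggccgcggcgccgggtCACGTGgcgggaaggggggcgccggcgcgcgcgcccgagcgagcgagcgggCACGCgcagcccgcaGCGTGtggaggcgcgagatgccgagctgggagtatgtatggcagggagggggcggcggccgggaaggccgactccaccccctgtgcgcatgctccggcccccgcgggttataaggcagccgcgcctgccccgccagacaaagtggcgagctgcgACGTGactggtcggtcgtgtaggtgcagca
Emb, chr13:117220323-117220622, plus strand: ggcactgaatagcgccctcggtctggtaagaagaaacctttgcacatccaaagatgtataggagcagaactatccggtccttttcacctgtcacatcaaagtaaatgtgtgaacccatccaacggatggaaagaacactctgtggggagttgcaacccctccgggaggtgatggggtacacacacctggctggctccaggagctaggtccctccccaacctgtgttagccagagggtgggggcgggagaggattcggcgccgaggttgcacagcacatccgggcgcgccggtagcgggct

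The Slc2a1 promoter held 2 matches, an ACGTG that begins 36 bases before the start site and a GCGTG on the other strand at 61 bases before it. The Slc16a3 promoter held 2, both ACGTG on the gene's strand, at 27 and 14 bases before the start site. The Slc16a1 promoter held 5, of which 2 are the strands of 1 palindrome, CACGTG, that contains ACGTG in each direction and was in 7.17% of promoters. No match was found in these letters for Emb. Its printed start site lies inside the annotated bounds of the gene (117208536 to 117274415), and sequence at other starts was not searched. Among 32544 distinct promoters of the table, 44.0% held at least 1 match, 20.8% at least 2 and 1.67% at least 5. With 4 promoters, nothing is read from these numbers about the factors or the group differences. The CpG ratio, observed over expected, was 0.605 for Slc2a1, 0.933 for Slc16a3, 1.06 for Slc16a1 and 0.565 for Emb, against a median of 0.387 over the table.

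The first question was how much glucose transporter message the 2 genotypes held. Slc2a1 (chromosome 4, 119108711 to 119137983, plus strand, mm10) had 4299.5 and 5397.1 normalized counts in control replicates 2 and 3, and 10123.8, 7369.4 and 12464.1 in GoF replicates 1, 2 and 3. All GoF values lay above both controls, and GoF replicate 2 came closest, at 1.37 times the higher control. The difference was 1.02 on the scale of log2(normalized count + 1) with a standard error of 0.20, which is 2.03-fold. Slc2a3 (chromosome 6, 122727809 to 122801640, minus strand) had control counts of 3576.1 and 3978.2 and GoF counts of 8331.4, 6379.3 and 10172.9. The order of the 5 libraries was the same as for Slc2a1, and the log2 difference was 1.11 (SE 0.17), or 2.16-fold. Per kilobase of exon, Slc2a3 made up 28.7% and 26.3% of the Slc2a1 and Slc2a3 signal in the controls and 28.8% ± 0.66 in GoF (SD, n = 3), and 2 of the 3 GoF shares lay within the control range.

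**Figure D1:**
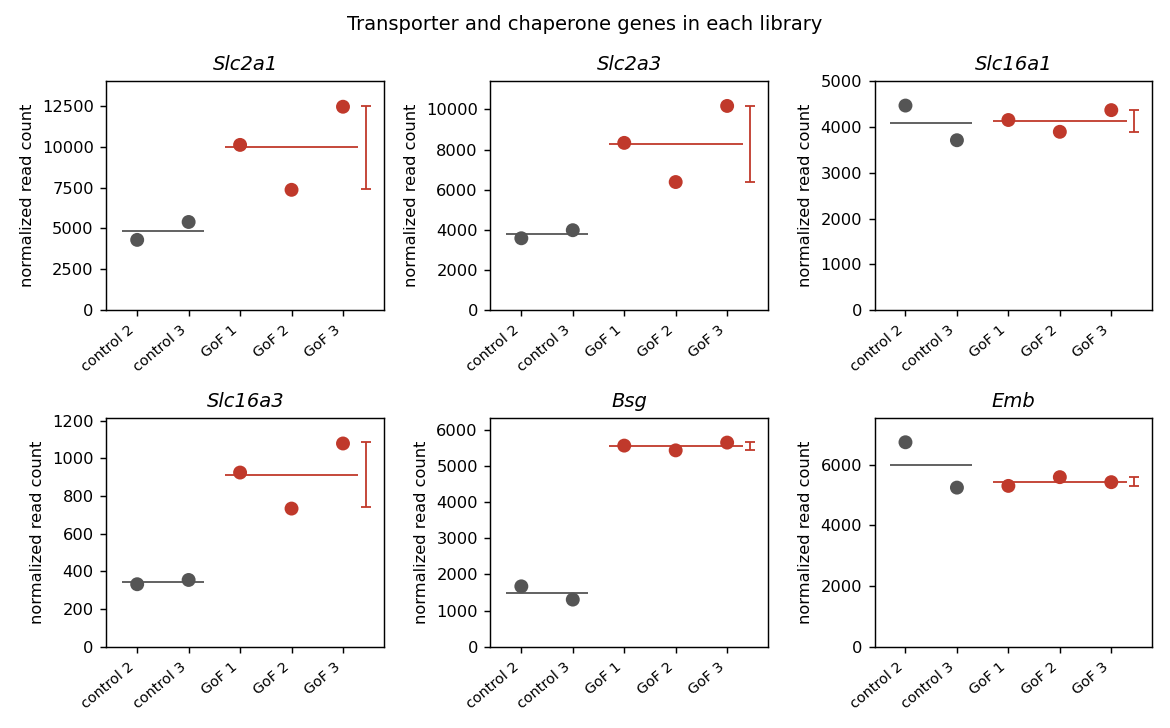
Normalized read count (y axis, from 0) of each gene in the 2 control (grey) and 3 GoF libraries (red); horizontal lines are group means and the bar at the right of each panel is the GoF SD. Slc2a1, Slc2a3, Slc16a3 and Bsg have every GoF library above both controls, and Slc16a1 and Emb do not.

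The lactate carriers differed from each other. Slc16a3 (chromosome 11, 120948480 to 120960868, plus strand), the exporter of glycolytic cells, had control counts of 331.8 and 354.4 and GoF counts of 924.9, 733.6 and 1079.3. The controls were close together and the lowest GoF library was 2.07 times the higher control. The log2 difference was 1.39 (SE 0.17), or 2.62-fold. Slc16a1 (chromosome 3, 104638668 to 104658462, plus strand) was at 4471.9 and 3713.7 in control libraries, and at 4156.0, 3897.8 and 4372.1 in GoF libraries. All 3 GoF values fell between the controls, and the log2 difference was 0.02 (SE 0.10). Slc16a1 stayed the more abundant of the pair per kilobase of exon: Slc16a3 made up 5.82% and 7.36% of the pair in the controls and 15.4% ± 1.76 in GoF (SD, n = 3).

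The partner proteins also differed from each other. Bsg (chromosome 10, 79704491 to 79711969, plus strand) had control counts of 1667.3 and 1301.5 and GoF counts of 5555.6, 5424.1 and 5639.0. The lowest GoF library was 3.25 times the higher control, and the GoF libraries differed by a coefficient of variation of 1.96%. Its log2 difference of 1.91 (SE 0.11), or 3.76-fold, was exceeded by 156 of the 16794 genes tested. The authors' deposited table gives a log2 fold change of 1.90 for Bsg. Emb (chromosome 13, 117208536 to 117274415, plus strand) was at 6746.5 and 5249.8 in control libraries, and at 5306.5, 5595.6 and 5429.5 in GoF libraries. The groups overlapped, and the log2 difference was -0.13 (SE 0.11). The sign and size of this difference rested on the controls: it was -0.31 without control replicate 3, where the fit called Emb lower, and 0.05 without control replicate 2. Per kilobase of exon Bsg made up 48.5% and 48.6% of the Bsg and Emb signal in the controls and 79.5% ± 0.70 in GoF (SD, n = 3). With the length of the longest transcript in place of all exons, the mean share was 32.2% in the controls and 66.1% in GoF.

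**Figure D2:**
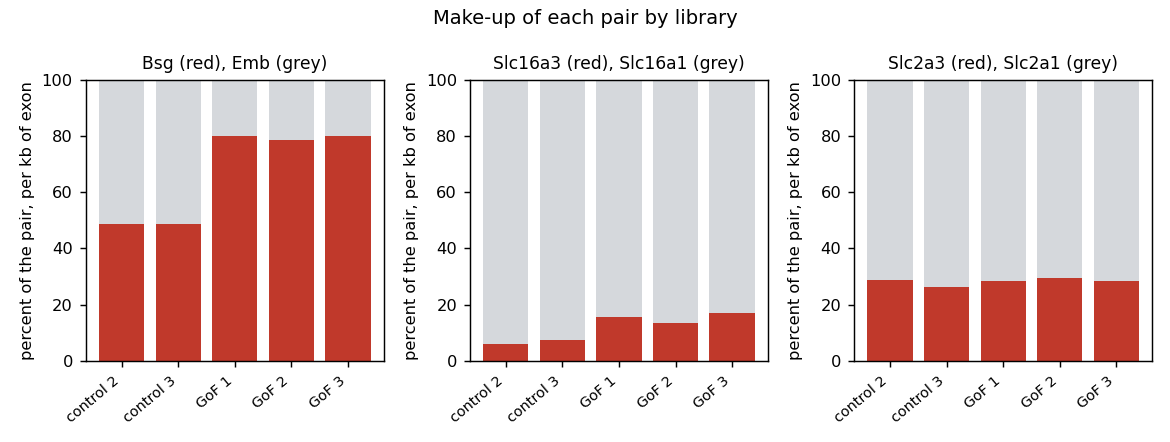
Share of each gene pair (y axis, percent of the summed signal per kilobase of exon) in the 5 libraries, with Bsg, Slc16a3 and Slc2a3 in red and Emb, Slc16a1 and Slc2a1 in grey. Bsg goes from 48.5% and 48.6% in the controls to 78.7% to 79.9% in GoF, Slc16a3 from 5.82% and 7.36% to 13.5% to 17.0%, and Slc2a3 stays between 26.3% and 29.5%.

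Of the 6 genes, 4 were called higher in GoF in the fit over all genes (adjusted p under 0.05) and 2 were not called. In the same fit 12.2% of 16794 genes were called higher and 10.9% lower, and 27.3% of genes had every GoF library above both controls, as the same 4 genes did. Because these genes were picked with this comparison known, nothing is read from the counts. Slc2a1 was not called without GoF replicate 1 (log2 difference 0.99), where 3 of the 6 genes were called higher against 4.04% of all genes, with 3.3% lower. Nor was it called without control replicate 2 (0.85). Without GoF replicate 1 the log2 difference was 1.09 for Slc2a3, 1.37 for Slc16a3, 1.91 for Bsg, 0.02 for Slc16a1 and -0.11 for Emb. In bulk tissue, more cells of a type that expresses a gene and more RNA of it per cell cannot be told apart.

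On a scale that allows genes to be compared, normalized counts per kilobase of exon, Slc2a1 led in the controls at 1382.9 (rank 537 of 16302 genes). Slc16a1, Emb and Bsg followed at 924.7, 868.5 and 818.3, and their ranges over the 2 controls overlapped. Slc2a3 was lower at 521.3, and Slc16a3 was last at 64.5 (rank 8941). In GoF Bsg and Slc2a1 were at 3053.8 ± 59.7 and 2848.2 ± 727.4 per kilobase (SD, n = 3), which overlapped, and they ranked 126 and 143. Slc2a3 at 1144.9 ± 261.8 overlapped Slc16a1 at 935.8 ± 53.6, Emb was at 788.3 ± 21.0 and Slc16a3 again last at 171.6 ± 32.6. The place of Emb depended on its length: with the longest transcript it stood at 2052.1 per kilobase in the controls, above Slc2a1 at 1487.2.

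Across the table, the difference between the groups followed the GC content of the transcripts, and the 4 genes that were higher include the 3 with the most GC. The longest transcripts of Bsg, Slc16a3 and Slc2a1 had 57.6%, 56.6% and 54.0% GC, and those of Slc2a3, Emb and Slc16a1 47.4%, 44.9% and 42.9%. With all genes in 10 bins of GC content, the bin of Bsg had a median log2 difference of 0.65 and 42 of its 1627 genes exceeded Bsg. Slc16a3 lay in a bin with a median of 0.45, where 91 of 1626 genes exceeded it, and Slc2a1 in one with a median of 0.30, where 146 of 1627 did. The bin of Slc2a3 had a median of -0.06, and 48 of its 1626 genes exceeded Slc2a3. After the GC trend was taken out of every library, the log2 difference was 1.34 for Bsg (SE 0.14), 0.88 for Slc16a3 (SE 0.18), 0.67 for Slc2a1 (SE 0.22) and 1.17 for Slc2a3 (SE 0.17). In that fit 3 of the 6 genes were called higher against 3.11% of all genes, with 3.33% lower, and Slc2a1 was not called. With the trend removed and GoF replicate 1 left out as well, 1 of the 6 was called higher, Bsg, against 0.32% of all genes, with 0.406% lower. Slc16a1 went to 0.27 and Emb to 0.04, and neither was called. The part of the GC trend in these differences was not tested.

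**Figure D3:**
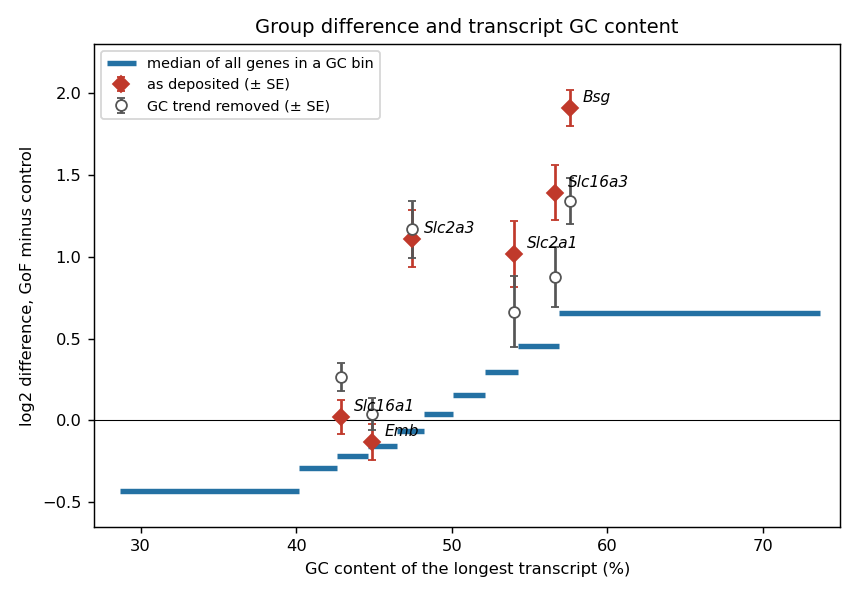
Log2 difference between GoF and control (y axis) against GC content of the longest transcript (x axis, percent) for the 6 genes, as deposited (red) and with the GC trend removed (open), each ± SE; blue lines are medians of all genes in 10 GC bins. The bin medians go from -0.43 to 0.65, and Bsg, Slc2a3, Slc16a3 and Slc2a1 lie above the median of their bins.

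The libraries of the GoF group were not alike for all of these genes, and this spread was not used to choose them. Slc2a1 was 0.76 higher on the log2 scale in GoF replicate 3 than in replicate 2, Slc2a3 0.67 and Slc16a3 0.56, with replicate 1 between them in each case, as for most genes. Of the 9082 genes, 201 differed more between these 2 libraries than Slc2a1, 282 more than Slc2a3 and 512 more than Slc16a3, and the median absolute difference was 0.16. The same difference was 0.17 for Slc16a1, 0.06 for Bsg and -0.04 for Emb. Bsg thus had the largest difference between the groups of the 6 genes and, with Emb, one of the 2 smallest differences between GoF replicates 2 and 3. Within the controls, Slc2a1 (-0.33), Slc2a3 (-0.15) and Slc16a3 (-0.09) were lower in replicate 2 than in replicate 3, while Slc16a1 (0.27), Bsg (0.36) and Emb (0.36) were higher.

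Likeness of pattern was taken as the root mean square difference between log2 profiles over the 5 libraries, each gene centred on its mean, among genes whose mean reached 200, without predicted gene models. Of 8367 such genes the 3 nearest to Slc2a1 were Triobp, Slc2a3 and Car12, at 0.08, 0.08 and 0.10. The 3 nearest to Slc2a3 were Slc2a1, Triobp and Gpi1, a glycolytic isomerase, at 0.08, 0.08 and 0.09. Those nearest to Slc16a3 were Vcp-rs, Gigyf1 and Gapdh (0.08, 0.10 and 0.12), and Slc2a3 was the 6th. Those nearest to Bsg were Pfkl, a phosphofructokinase subunit, Eno1b and Nab2 (0.10, 0.12 and 0.14), against a median of 0.957 over the genes. Eno1b and Vcp-rs are close copies of Eno1 and Vcp, and Gapdh has many pseudogenes, so their counts are uncertain. Alkbh1, Plk2 and Atrnl1 were nearest to Slc16a1, and Pdcl, Zfhx3 and Stradb to Emb, all at 0.02. When each library was instead taken against the mean of its own group, which leaves out the difference between the groups, Slc2a3 and Slc16a3 were 0.04 apart and Slc2a3 and Slc2a1 0.06. Only 10 genes were closer to Slc2a3 than Slc16a3 was, and 30 were closer than Slc2a1. On the same measure Bsg was 0.31 from Slc2a1 and 0.21 from Slc16a3, with 7891 and 6576 genes closer to it. It was 0.04 from Emb and 0.04 from Slc16a1, with 324 and 488 genes closer. These measures rest on 5 libraries and carry no test.

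Other genes of the route from glucose to lactate were taken from whole lists. The lists were written with earlier results of these data known, so their counts are a description. Of 17 glycolytic enzyme genes 13 rose, 0 fell and 4 did not pass (12.2% of all genes rose), with a median log2 difference of 0.82 against -0.01 for all genes tested. Leaving out 1 GoF library without GC correction gave 8 (without GoF replicate 3) to 11 (without GoF replicate 2). Over all 16794 genes, 1362 and 923 were called higher in these fits. Without GC correction Gapdh, Ldha, Pkm, Pfkl, Aldoa, Gpi1, Tpi1 and Eno1 were called whichever GoF library was left out. With the GC trend removed and all libraries kept, 7 rose (3.11% of all genes), all of these but Eno1, with a list median of 0.48. With the trend removed and GoF replicate 1 left out as well, 4 of the 17 rose (0.32% of all genes), and Pkm did not pass. Pkm, pyruvate kinase, rose 2.08-fold from 4573.9 and 6143.3 counts to 10986.2, 10614.5 and 11550.7 (limma adjusted p = 0.00389). Eno1, an enolase, rose 1.69-fold (adjusted p = 0.00585), which did not hold once the GC trend was taken off (adjusted p = 0.256). Ldhb, the other lactate dehydrogenase subunit, was at 356.4 and 330.7 in control libraries and at 399.9, 354.3 and 440.9 in GoF libraries, and did not pass.

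**Figure D4:**
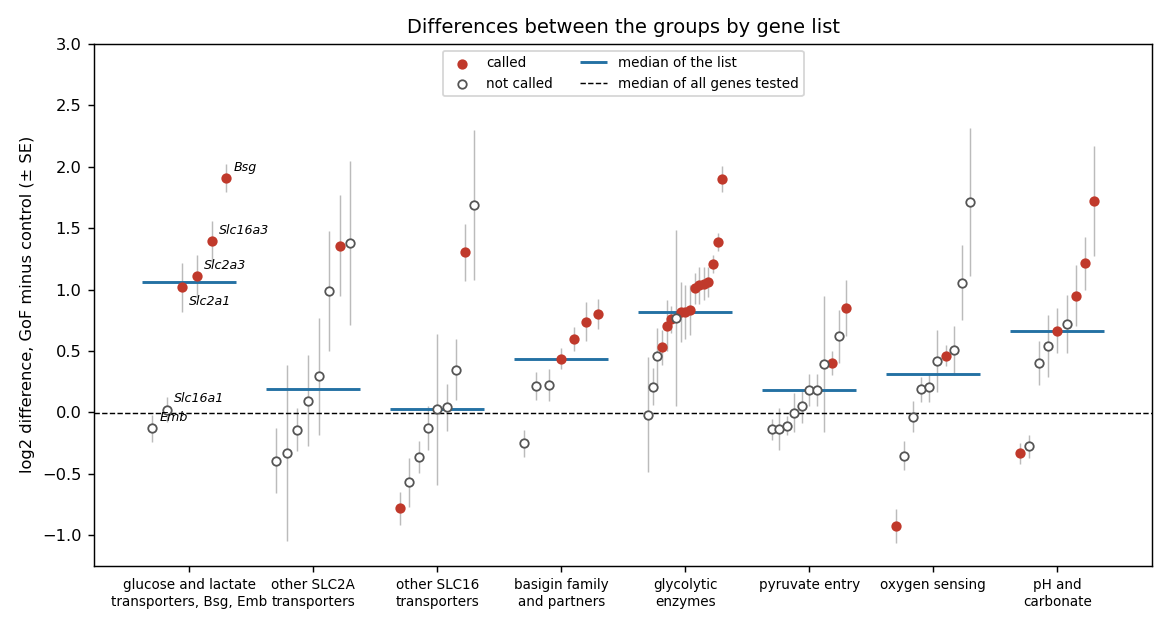
Log2 difference between GoF and control (y axis, ± SE) of each measured gene in 8 gene lists (x axis); red points passed the test over all genes, open points did not, blue lines are list medians and the dashed line is the median of all genes. Glycolytic enzymes have a median of 0.82, other SLC2A transporters 0.19 and other SLC16 transporters 0.02.

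The enzymes also differed within GoF. Of the 17, 15 had more counts in GoF replicate 3 than in replicate 2, as did 8125 of the 16794 genes tested. The median difference of the 17 between these libraries was 0.31 on the log2 scale, against -0.01 for all genes tested. Hk2, a hexokinase, had 4967.0, 3409.3 and 6519.3 counts in GoF replicates 1, 2 and 3, in the order of the glucose transporters. Pfkl had 1292.0, 1395.3 and 1356.0, close together like Bsg. Of 10 oxygen-sensing genes (12.2% of all genes rose and 10.9% fell) Arnt, the shared partner of the hypoxia-inducible factors, rose 1.38-fold (limma adjusted p = 0.0111), Epas1, which encodes HIF-2 alpha, fell to 0.53 of the control level (adjusted p = 0.00631) and 8 did not pass. Without GoF replicate 1 Arnt did not pass (adjusted p = 0.0726), while Epas1 was called lower whichever library was left out and also after GC correction. The list gave 0 genes higher without GoF replicate 1, 3 without GoF replicate 2 and 2 without GoF replicate 3. Over all 16794 genes, 678, 923 and 1362 were called higher in these fits. Hif1a, the oxygen-regulated subunit, had control counts of 10437.5 and 7894.1 and GoF counts of 7079.4, 6880.8 and 7355.8, and did not pass (adjusted p = 0.0607). Egln1, an oxygen-dependent prolyl hydroxylase that marks the factors for breakdown, had 1836.1 and 1668.4 counts and then 3856.5, 2357.8 and 5298.4 (adjusted p = 0.0519), and Egln3, a related hydroxylase, had 317.7 and 205.9 and then 950.5, 383.4 and 1630.2 (adjusted p = 0.0959). Both had the same order of GoF libraries as Slc2a1, Slc2a3 and Slc16a3. An order with replicate 1 in the middle is common, as it lay between the other GoF libraries for 69.5% of 9082 genes.

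**Figure D5:**
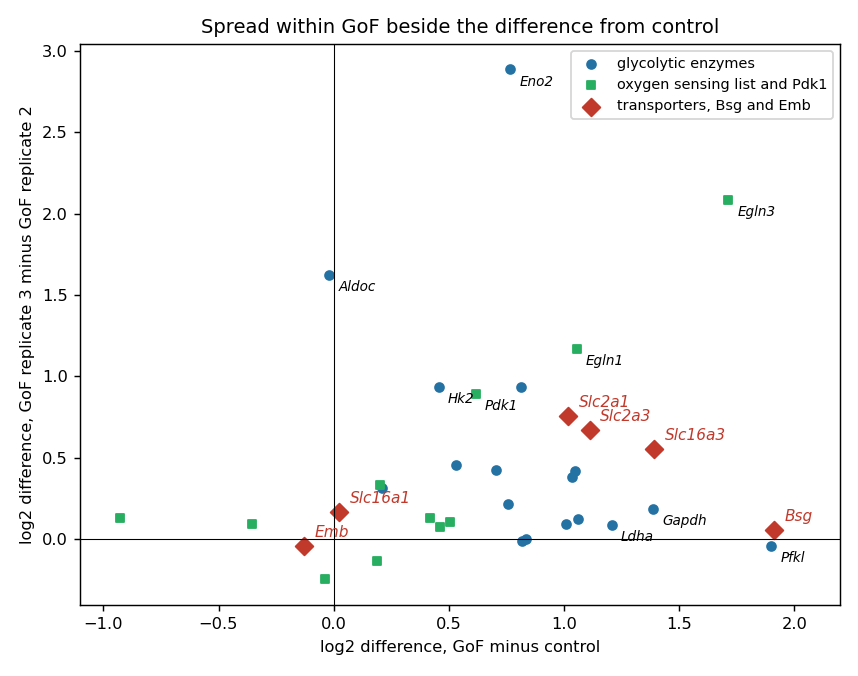
Log2 difference between GoF replicates 3 and 2 (y axis) against the log2 difference between GoF and control (x axis) for the 6 genes (red), glycolytic enzymes (blue), and the oxygen-sensing list with Pdk1 (green). Slc2a1, Slc2a3 and Slc16a3 lie at 0.56 to 0.76 on the y axis, and Bsg and Pfkl lie near 0 there with x values of 1.91 and 1.90.

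Of 8 other SLC2A transporters with values (12.2% of all genes rose), 1 rose, Slc2a4, from 24.6 and 12.5 counts to 51.3, 44.5 and 44.5 (limma adjusted p = 0.0477), a call lost without any of 4 of the 5 libraries. The other 7 did not pass, and the most abundant of them, the inositol transporter gene Slc2a13, had control counts of 202.8 and 228.4 and GoF counts of 181.5, 216.8 and 188.5. The summed counts of all 8 were 537.0 and 448.0 in the controls and 447.4 to 511.2 in GoF. Of 9 other SLC16 genes, 1 rose, 1 fell and 7 did not pass, near the 12.2% and 10.9% of all genes. Slc16a4 fell to 0.58 of the control level, from 1137.3 and 954.6 counts to 584.5, 555.7 and 681.2 (adjusted p = 0.00954), and Slc16a13 rose 2.47-fold, but neither was called with the GC trend removed. Without GoF replicate 1, 1 of the 9 rose and 1 fell, against 4.04% and 3.3% of all genes. Nptn, which encodes neuroplastin, the remaining relative of basigin and embigin, had 1473.8 and 1719.6 counts and then 1339.2, 1413.9 and 1255.6, and did not pass (adjusted p = 0.123).

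Among 7 basigin relatives and binding partners 4 rose (12.2% of all genes), 0 fell and 3 did not pass. Without GoF replicate 1, 1 of the 7 rose (4.04% of all genes), and 1 with the GC trend removed (3.11%). Ppia, which encodes cyclophilin A, a ligand of basigin, rose 1.35-fold from 4038.1 and 3610.1 counts to 5172.1, 5348.9 and 4971.6 (limma adjusted p = 0.0127, and 0.0594 without GoF replicate 1). Slc3a2 and Slc7a5, the subunits of a large amino acid exchanger found in complexes with basigin, rose 1.74-fold and 1.51-fold, and neither was called with the GC trend removed. Slc7a5 was also not called without GoF replicate 1 (adjusted p = 0.0541). Of 9 genes of pH and carbonate handling, which deal with the acid exported with lactate, 4 rose, 1 fell and 4 did not pass, against 12.2% and 10.9% of all genes. Without GoF replicate 1, 1 of the 9 rose (678 of 16794 genes). Without GoF replicate 2 or 3, 2 rose (923 and 1362 of 16794 genes). With the GC trend removed 1 rose and 0 fell (3.11% and 3.33% of all genes). Car14, a membrane carbonic anhydrase, rose 2.32-fold from 355.3 and 204.7 counts to 623.4, 619.6 and 635.9 (limma adjusted p = 0.0102). It was also called with the GC trend removed or with any 1 GoF library left out. With the trend removed and GoF replicate 1 left out as well, it was not called.

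Of 11 genes of the alternative fate of pyruvate, entry into mitochondria, 2 rose, 0 fell and 9 did not pass, near the 12.2% of all genes that rose. The median log2 difference of these genes was 0.18. Pdhb, a pyruvate dehydrogenase subunit, rose 1.32-fold (limma adjusted p = 0.0261), a call lost without any 1 of the GoF libraries. With GoF replicate 1 or 3 left out no gene of the list was called higher, against 678 and 1362 of 16794 genes. Pdk1, a kinase that shuts pyruvate dehydrogenase off, had control counts of 2682.7 and 2470.8 and GoF counts of 4051.4, 2866.5 and 5316.2, and did not pass (adjusted p = 0.0746). Of 11 genes of glucose transporter trafficking and turnover 3 rose (12.2% of all genes) and 8 did not pass, and 0 of them passed with the GC trend removed. Txnip, whose product promotes the uptake of GLUT1 from the membrane, had 220.4 and 232.1 counts and then 204.1, 306.6 and 169.9. Of 9 amino acid transporter genes from other families, 1 rose and 8 did not pass, near the share of all genes, and Slc38a2, the most abundant, was at 16281.3 and 13968.7 and then 15145.2, 16245.6 and 14566.8 counts. Together the lists held 91 tested genes, of which 30 rose and 3 fell (12.2% and 10.9% of all genes), and 11 and 1 with the GC trend removed (3.11% and 3.33%).

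Markers of other cell types were set beside these genes. Of 8 erythroid genes with values 2 rose and 0 fell (12.2% and 10.9% of all genes). With the GC trend removed 0 rose and 1 fell (3.11% and 3.33%). All 8 were higher in GoF replicate 3 than in replicate 2 (median log2 difference 0.45), against 8125 of the 16794 genes tested. Slc2a1, Slc2a3 and Slc16a3 were higher there too, Slc16a1 (0.17) and Bsg (0.06) slightly so, and Emb (-0.04) was lower. The summed erythroid counts were 11216.1 and 7031.8 in control replicates 2 and 3 and 15993.2, 13946.1 and 17870.2 in GoF. Of these the embryonic globin gene Hba-x gave 8667.1 and 4824.3, and 12919, 11272 and 14477.9. Within the controls the erythroid sum was higher in replicate 2, where Bsg, Slc16a1 and Emb were also higher and Slc2a1, Slc2a3 and Slc16a3 were lower. Of 8 epithelial and endodermal genes 4 rose, among them Cldn6 and Cdh1, and 0 fell (12.2% and 10.9% of all genes). With the GC trend removed 0 rose and 0 fell (3.11% and 3.33%). Without that removal their median log2 difference was 0.47. Their sum was 7044.3 and 5261.1 in the controls and 7317.0 to 7743.1 in GoF. The summed counts of 6 neural crest genes were 4530.5 and 5162.5 and then 5347.0 to 5816.4. Of 7 endothelial genes 1 rose, Cdh5 (1.53-fold), and 2 fell, with Erg at 0.48 of the control level, against 12.2% and 10.9% of all genes. With the GC trend removed 0 rose and 1 fell, Erg (3.11% and 3.33%). The sum of the 7 was 10949.9 and 8928.6 and then 8172.6 to 8977.2. That of 8 neural tube genes was 5599.8 and 4790.6 and then 4609.1 to 5001.9. The liver bud list had 3 genes with values, among them Ttr, at 0 in at least 1 library, and its sum was 776.2 and 139.8 in the controls and 522.5 to 597.9 in GoF. The macrophage list had 1 gene with values, Csf1r, at 51.6 and 11.2 and then 9.7 to 21.8 counts. The part of these cell types in the differences of the transporters was not tested.

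Reads of overlapping genes cannot be told apart where the strand setting is unknown, which touches 2 of the 6 genes. An exon of the antisense gene Gm12868 overlaps one of Slc2a1, and Gm12868 was at 93.8 and 108.6 counts in the controls and 59.9 to 114.1 in GoF, far below Slc2a1. Gm17509 overlaps Emb on the opposite strand, with 5.9 and 16.2 counts and then 30.7 to 36.9. No exon of another annotated gene overlapped those of Slc2a3, Slc16a1, Slc16a3 or Bsg.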

How the data were processed

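The sources are 1 deposited table and the sample labels. The protocol in the labels started from 2 ng of RNA, copied to cDNA and amplified isothermally, and 100 ng of product entered each library. Amplification can favour transcripts by composition. The tools, per the submitters' processing notes, include STAR 2.5.2, HTSeq for counting and DESeq2, on build mm10. Which annotation, strand setting and filter were used is not stated there or in the labels. The deposited signal per library is a normalized count, per the file headers, and 100% of values were whole multiples of 1 step per library (within 0.001), so reads were recovered. The deposited log2 fold change, test score, p-value and adjusted p-value are the authors' comparison, of which only fold changes are quoted. The lowest mean in the table was 6.1.

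The test was limma 3.58.1 in R 4.3.3 (trend and robust, without covariates) on log2(normalized count + 1) of the 16794 genes whose mean reached 10, with Benjamini-Hochberg adjustment over all of them. Genes with an adjusted p under 0.05 were called. Recovered reads were also tested with edgeR 4.0.16 and DESeq2 1.42.0. A lowess curve (span 0.3) on GC content of the longest GENCODE M21 transcript (GRCm38, which is mm10; 96.9% of genes matched by symbol) was removed in an alternative. Promoters and their coordinates are from RefSeq (GRCm38.p6). The 6 genes, the gene lists and the tests were chosen with earlier results of these data known. Named genes are the 6, Hoxb1, up to 4 of the most abundant genes of each pathway list, 2 of each cell type list, and the 3 nearest in pattern to each of the 6. Other genes were named after their values were seen. Reads were amplified without molecular identifiers, so no counting intervals are given.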

Additional observations from a re-analysis of the deposited data

How the results depend on the processing

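Over 19 alternative settings the log2 difference stayed positive for Bsg (1.34 to 2.09), Slc16a3 (0.86 to 1.54), Slc2a3 (0.95 to 1.29) and Slc2a1 (0.64 to 1.22). Since the genes were chosen with this difference known, whether a setting called them is a description and no support for it. With the GC trend removed Slc2a1 was not called (0.67), and without GoF replicate 1 as well, Slc2a1 (0.64), Slc2a3 (1.15) and Slc16a3 (0.86) were not. Without trend or robust in limma the values of Slc2a1 (1.02) and Slc2a3 (1.11) were the same but not called. With 1 library left out at a time the range was 0.84 to 1.22 for Slc2a1, -0.11 to 0.16 for Slc16a1, whose sign turned without GoF replicate 3 (-0.02) and control replicate 3 (-0.11), and -0.31 to 0.05 for Emb. The small difference of Emb turned positive with the GC trend removed (0.0402; 0.0592 without GoF replicate 1 as well), with quantile normalization (0.0462), with scaling to non-mitochondrial reads (0.02) and without control replicate 2 (0.052). That scaling moved the median of all genes to 0.14.

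Genes called over the whole table numbered 2054 higher and 1835 lower, 506 and 542 with the GC trend removed, 52 and 66 without GoF replicate 1 as well, 932 and 467 without trend or robust, and 678 to 2734 and 554 to 2552 with 1 library left out. Scaling to non-mitochondrial reads gave 890 lower. Of the 91 pathway genes 30 rose and 3 fell. These were 11 and 1 with the GC trend removed, 4 and 1 without GoF replicate 1 as well, 11 and 1 without trend or robust, 13 to 31 and 2 to 8 with 1 library left out, and 5 fell with DESeq2. Ttn turned from lower to 0.0554 with quantile normalization. The cause of these changes was not tested.

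Deviations of same-numbered libraries from their group means were hardly correlated (r = 0.0068 for replicate 2 and 0.0025 for replicate 3). The deviations of the 2 controls mirror each other, and control replicate 1 has no values. These values therefore cannot decide whether the numbers pair libraries, and the labels state no pairing. With the replicate number as a block 765 genes were higher and 606 lower, and 17 pathway genes rose. With the block and the GC trend removed these were 73, 90 and 5, with 1 pathway gene lower, and Slc2a1 (0.64) and Slc16a3 (0.86) were not called and Emb stood at 0.0585.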
